A study of Mus musculus with 8 samples.

Results

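Genes of the protein-folding machinery of the endoplasmic reticulum and of the stress response that controls it were examined in hypocretin neurons of the mouse hypothalamus. The list holds 50 genes, chosen by name: a probe set belonged to it when the array annotation gave that gene as its only symbol. Of these genes 49 were among the 18193 genes with a probe set, through 109 probe sets, and 46 had at least 1 probe set that passed the filter on low values and was tested, among 10398 tested genes in all. Cdnf had no probe set, and Sdf2l1, Derl3 and Trib3 did not pass. All mice carried a bacterial artificial chromosome transgene for translating ribosome affinity purification (line Hcrt JD218, a mixture of the Fvb and c57/bl6j strains). In this method a tagged ribosomal protein marks the ribosomes of 1 cell type, here through the regulatory sequence of Hcrt, which encodes the wake-promoting hypocretin peptides, so that their RNA can be pulled down. Dissected diencephalon, that is thalamus and hypothalamus together, came from adult males and females between 6 and 12 weeks old, with 5 mice pooled per preparation. From each of 4 preparations the immunoprecipitate, which holds the ribosome-bound RNA, and the unbound fraction, which stands for RNA of the whole tissue, were amplified and hybridised to 1 Affymetrix mouse array each, 8 arrays in all. No untreated or transgene-free precipitate was used here, so the unbound fraction is the only background.

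The endoplasmic reticulum is where secreted and membrane proteins, including the precursors of neuropeptides, enter the secretory pathway and fold. Chaperones of the Hsp70 and Hsp90 families hold unfolded chains, lectins hold those that carry sugars, and disulfide isomerases form and shuffle their bonds. When unfolded proteins build up, the sensors Ern1 (IRE1), Eif2ak3 (PERK) and Atf6 raise chaperone synthesis, slow translation and increase the removal of misfolded proteins by the proteasome. Neurons that release peptides carry a large load of secretory cargo, and hypocretin neurons are of this kind.

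All values are GCRMA-normalized log2 values, aligned between the fractions on hybridisation controls, and a linear value of 50, or 5.64 on that scale, was taken as the lowest measurable level. Between 33.6% and 34.8% of probe sets on the immunoprecipitate arrays and between 40.5% and 40.9% on the unbound arrays reached it. The number of arrays limits the precision. Hcrt, the gene the transgene is named for, stood at 15.10, 15.39, 15.43 and 15.50 in the immunoprecipitates and at 9.77, 10.10, 10.40 and 11.06 in the unbound fractions, a rise of 32.5-fold (adjusted p = 6.5e-07). All 7 markers of hypocretin neurons (Hcrt itself, Pdyn, Nptx2, Pcsk1, Rfx4, Lhx9 and Scg2) were higher. Their summed linear level ran from 87221 to 123305 in the immunoprecipitates against 8763 to 14612 in the unbound fractions. These markers include the targeted gene, and the lists were chosen with earlier results of these data known. Their rise is therefore no independent check of the purification. Of 6 pan-neuronal markers 1 rose and 4 fell, with sums of 33572 to 39191 against 70920 to 89582. Markers of non-neuronal cells were lower but not gone. All 8 astrocyte markers fell, with sums of 1688 to 8182 against 18433 to 24517 and with Sox9 under 50 on every immunoprecipitate array. All 7 tested oligodendrocyte markers fell, with sums of 18290 to 40053 against 92436 to 106727. All 6 tested markers of microglia fell (266 to 1210 against 2709 to 4691), with C1qa, Cx3cr1 and Aif1 under 50 in the immunoprecipitates. All 3 tested markers of endothelial and mural cells fell too (84 to 352 against 706 to 985), with Cldn5, Pecam1, Flt1, Kdr and Slco1c1 under 50 there. Any tested marker under 50 on every immunoprecipitate array passed the filter on low values through the unbound arrays alone. The direction of such a marker was fixed by the filter. Over all tested genes 4.74% were called higher and 44.2% lower, as defined below, with a median log2 fold change of -0.85. The marker medians were -2.95 for astrocytes, -1.91 for oligodendrocytes, -2.4 for microglia and -2.16 for endothelial and mural cells. Those of pan-neuronal and hypocretin neuron markers were -1.78 and 3.82. Replicate 1 of the immunoprecipitate had the lowest sum for hypocretin neurons (87221) and the highest for astrocytes (8182), and replicate 4 had 123305 and 1688. The endoplasmic reticulum genes are used by all these cells, and the part of the other cells in the values below was not tested. In such bulk samples fewer cells of a type and less RNA per cell cannot be told apart, nor can cell type and binding to ribosomes.

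Between the fractions most endoplasmic reticulum genes were not called, and those that were called moved in both directions. Called means a limma adjusted p below 0.05 over all tested probe sets and at least 2-fold, with each gene represented by its tested probe set of highest mean. Of the 46 tested members 4 rose (Erp29, Ppp1r15a, Manf and Edem2), 11 fell and 31 were not called. That is 8.70% higher and 23.9% lower, where 4.74% and 44.2% of all tested genes were called. Median centring gave 13 members higher and 2 lower (28.3% and 4.35%, beside 17.5% and 22.2% of all tested genes). Quantile normalization gave 11 and 2 (23.9% and 4.35%, beside 16.4% and 20.6%). A scale set on poly-A spike controls gave 0 and 41, the latter 89.1%, beside 0.673% and 94.5% of all tested genes. The median log2 fold change was -0.13 for the members and -0.85 for all tested genes, and 34 of 46 members lay above the latter. These counts are over members that passed the filter. Without the filter 49 members gave 4 higher and 12 lower. Pdia4 passed through the unbound arrays alone, and its call rests on immunoprecipitate values under 50. For 8 members every immunoprecipitate array lay above every unbound array, and for 15 every one lay below, where 6.53% and 50.6% of all tested genes did so.

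**Figure D1:**
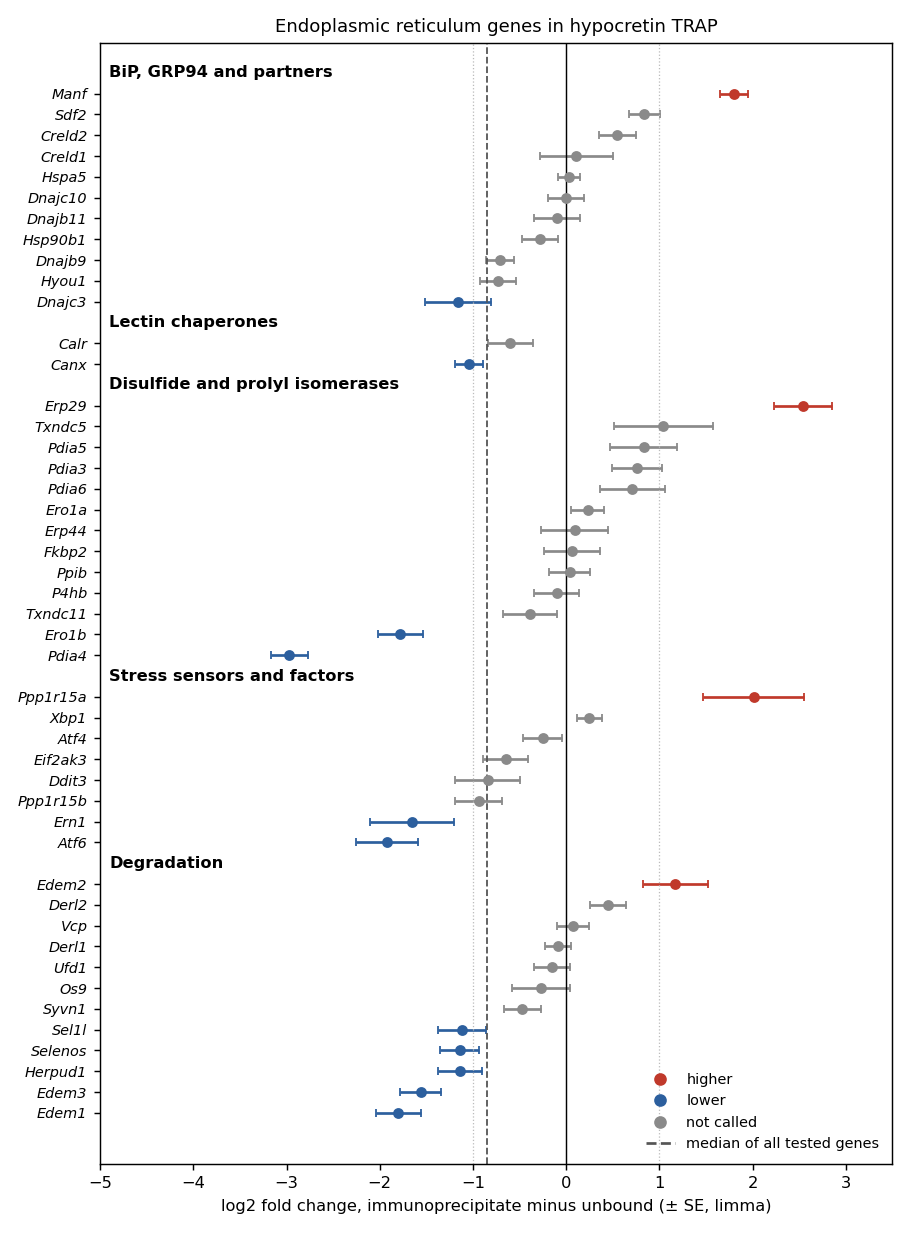
Log2 fold change (immunoprecipitate minus unbound, x axis, with the limma SE) of each of the 46 tested genes, grouped by role. Red points were called higher, blue lower and grey not called, dotted lines mark 2-fold, and the dashed line is the median of all tested genes at -0.85. Erp29 is at 2.54, and the point of Pdia4 is a fitted value with every immunoprecipitate array under 50, for which only a bound of 1.38-fold can be given.

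Many genes of this group are known to share a promoter motif, the endoplasmic reticulum stress element ERSE, through which ATF6 and XBP1 act with the factor NF-Y. The members were compared for it, since it can be read without the arrays. As the group is already known for this motif, a high share among the members is no independent finding. RefSeq windows of 250 bases before the start site (build GRCm38.p6) were at hand for 44 of 50 members, 6 of them with several windows, and for 27025 genes in all. ERSE, written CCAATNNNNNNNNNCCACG and searched on both strands, occurred in 10 of 44 members (22.7%) and in 0.13% of all genes. The members were Calr, Canx, Creld2, Derl3, Dnajc3, Ero1b, Hsp90b1, Hspa5, Pdia6 and Syvn1. The related ERSE-II, whose letters are the capitals in the Herpud1 sequence printed with the others, occurred in 1 member, Herpud1 (2.27%), and in 0.037% of all genes. The core of the UPRE element bound by XBP1, TGACGTG, occurred in 4 of 44 (9.09%, against 1.85% of all genes), namely Hspa5, Txndc11, Txndc5 and Vcp. The element bound by ATF4 and CHOP with C/EBP factors, TGATGNAA, occurred in 3 of 44 (6.82%, against 3.91%), namely Cdnf, Herpud1 and Txndc5. In these windows 0 pairs of matches overlapped. A match describes the letters and does not show a used site.

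The 150 bases before the start site are shown for 6 members that hold ERSE or ERSE-II, with log2 fold changes between the fractions from -1.16 in Dnajc3 to 0.71 in Pdia6, and with the fixed letters of the motif in capitals. They are printed 5′ to 3′ on the strand of the gene. Hspa5 lies at chr2:34771940-34772089 (plus strand), Hsp90b1 at chr10:86705445-86705594 (minus), Pdia6 at chr12:17266439-17266588 (plus), Dnajc3 at chr14:118937782-118937931 (plus), Canx at chr11:50325674-50325823 (minus) and Herpud1 at chr8:94386279-94386428 (plus).
Hspa5: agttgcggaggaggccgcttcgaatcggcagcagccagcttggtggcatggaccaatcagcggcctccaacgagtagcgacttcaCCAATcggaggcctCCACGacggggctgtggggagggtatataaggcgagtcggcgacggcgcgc
Hsp90b1: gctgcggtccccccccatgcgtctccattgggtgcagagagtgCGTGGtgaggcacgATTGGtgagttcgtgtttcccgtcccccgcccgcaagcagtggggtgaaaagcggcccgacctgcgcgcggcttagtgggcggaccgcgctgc
Pdia6: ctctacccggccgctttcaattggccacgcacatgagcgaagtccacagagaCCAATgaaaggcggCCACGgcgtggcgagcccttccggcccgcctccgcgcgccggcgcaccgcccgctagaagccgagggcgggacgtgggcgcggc
Dnajc3: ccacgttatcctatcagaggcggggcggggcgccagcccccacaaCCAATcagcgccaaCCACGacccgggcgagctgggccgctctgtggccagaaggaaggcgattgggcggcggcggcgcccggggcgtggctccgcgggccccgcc
Canx: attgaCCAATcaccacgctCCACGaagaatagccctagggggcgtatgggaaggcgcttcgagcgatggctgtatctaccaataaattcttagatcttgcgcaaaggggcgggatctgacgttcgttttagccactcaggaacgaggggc
Herpud1: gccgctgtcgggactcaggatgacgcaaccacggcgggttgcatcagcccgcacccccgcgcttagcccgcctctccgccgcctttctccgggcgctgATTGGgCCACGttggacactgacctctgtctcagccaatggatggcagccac
In Hspa5 the motif spans bases -65 to -47 from the start site, in Pdia6 -98 to -80, in Dnajc3 -105 to -87 and in Canx -145 to -127, all in the forward direction. In Hsp90b1 the copy shown is reversed, at -107 to -89, and another lies upstream of the stretch, at -212 to -194. The ERSE-II of Herpud1 spans -52 to -42.

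Replicates of a group varied less for these genes than for genes in general. Their median SD was 0.29 among immunoprecipitates and 0.28 among unbound fractions, against 0.39 and 0.35 over all tested genes. Of the 46 tested members 41 reached 50 on all 8 arrays, and the part of signal level in the smaller SD was not tested. Within preparations 1 to 4 the members' median difference was -0.44, -0.08, 0.02 and -0.34 on the log2 scale, while that of all genes was -0.85, -0.85, -0.79 and -0.88. The members thus lay 0.41 to 0.81 above all genes in each of the 4 preparations. All 4 preparations agreed in direction for 30 members, 11 of them higher and 19 lower in the immunoprecipitate, where 12.9% and 63.9% of all tested genes were so.

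The Hsp70 chaperone Hspa5 (BiP) is the central chaperone of the compartment and the usual readout of its stress response. Aligned on the hybridisation controls, it differed little between the fractions. It stood at 14.02, 13.77, 13.87 and 13.74 in the immunoprecipitates and at 13.97, 13.74, 13.74 and 13.84 in the unbound fractions. The groups overlapped, and the difference was 0.03 ± 0.12 (SE) on the log2 scale (adjusted p = 0.85). Its other tested probe sets gave -0.18 and -0.24, also without a call. Median centring put Hspa5 at 0.84 (adjusted p = 0.00034), short of 2-fold, quantile normalization at 0.09 and the poly-A scale at -1.94. Hsp90b1 (GRP94), the Hsp90 of the compartment, was at 12.87, 12.98, 12.98 and 12.36 against 13.44, 13.00, 12.94 and 12.92. That is -0.28 ± 0.19 (SE, adjusted p = 0.21), with overlapping groups. A second Hsp90b1 probe set pointed the other way, at 0.94 (adjusted p = 0.042), below 2-fold.

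Manf, a small secreted protein that binds BiP and is released under stress of the compartment, rose 3.49-fold. Its values were 13.14, 13.27, 13.36 and 13.10 in the immunoprecipitates and 11.41, 11.69, 11.36 and 11.20 in the unbound fractions. The groups lay far apart (log2 fold change 1.80 ± 0.15 SE, adjusted p = 1.2e-05, higher in 4 of 4 preparations), and by fold it ranked 186 of 10398 genes. On the poly-A scale, which lowers every gene by the same amount, Manf was at -0.16 and not called. Cdnf, its paralog, had no probe set. Sdf2, related to the BiP cofactor Sdf2l1, was 0.84 ± 0.17 higher (adjusted p = 0.0017) with no overlap of the groups, short of 2-fold. Creld2, a stress-induced disulfide protein, was 0.55 ± 0.20 higher (adjusted p = 0.033), and its relative Creld1 was at 0.11 (adjusted p = 0.83). Sdf2l1 itself reached 50 on 1 array of each group, with means of 5.09 and 5.66.

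Of the 11 tested members grouped with BiP and GRP94 1 rose, Manf, and 1 fell. That is 9.09% higher and 9.09% lower, beside 4.74% and 44.2% of all tested genes. The fall lay among the J-domain cochaperones, which drive the ATP cycle of BiP. Dnajc3 (p58IPK), which also restrains PERK, was at 8.89, 8.45, 8.04 and 7.48 in the immunoprecipitates and at 9.41, 9.62, 9.79 and 8.69 in the unbound fractions. It fell 2.23-fold (log2 fold change -1.16 ± 0.35 SE, adjusted p = 0.015), lower in each preparation though the groups overlapped. The call rests on 1 of 3 tested probe sets, the others giving -0.34 and -0.36, and without immunoprecipitate replicate 4 the value was -0.91. It was -0.35 after median centring and -0.27 after quantile normalization. Dnajb9 (ERdj4), a target of XBP1 that acts on IRE1, was at 12.48, 12.14, 12.21 and 12.22 against 13.13, 12.81, 12.80 and 13.16. Every immunoprecipitate lay below every unbound fraction, by 0.71 on average (SE 0.15, adjusted p = 0.0023), which is under 2-fold. Hyou1 (GRP170), a nucleotide exchange factor of BiP, was 0.73 lower (adjusted p = 0.0070), also with no overlap. After median centring and quantile normalization Dnajb9 was at 0.1 and -0.38, and Hyou1 at 0.08 and 0.05. Dnajb11 (-0.10) and Dnajc10 (0.00), the latter a disulfide reductase, were not called.

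The lectin chaperones bind newly made glycoproteins, calnexin in the membrane and calreticulin in the lumen. Canx was at 13.13, 13.03, 12.92 and 12.74 in the immunoprecipitates and at 14.13, 13.90, 13.74 and 14.19 in the unbound fractions. The groups were separate, and Canx fell 2.05-fold (log2 fold change -1.04 ± 0.15 SE, adjusted p = 0.00020). It sits at the threshold: without unbound replicate 1, immunoprecipitate replicate 4 or unbound replicate 4 it was at -0.99, -0.97 and -0.97, and median centring and quantile normalization gave -0.22 and -0.90. Calr was 0.60 lower in the immunoprecipitates, in 4 of 4 preparations, and was not called (adjusted p = 0.052). Median centring put Calr at 0.21 and quantile normalization at -0.37.

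**Figure D2:**
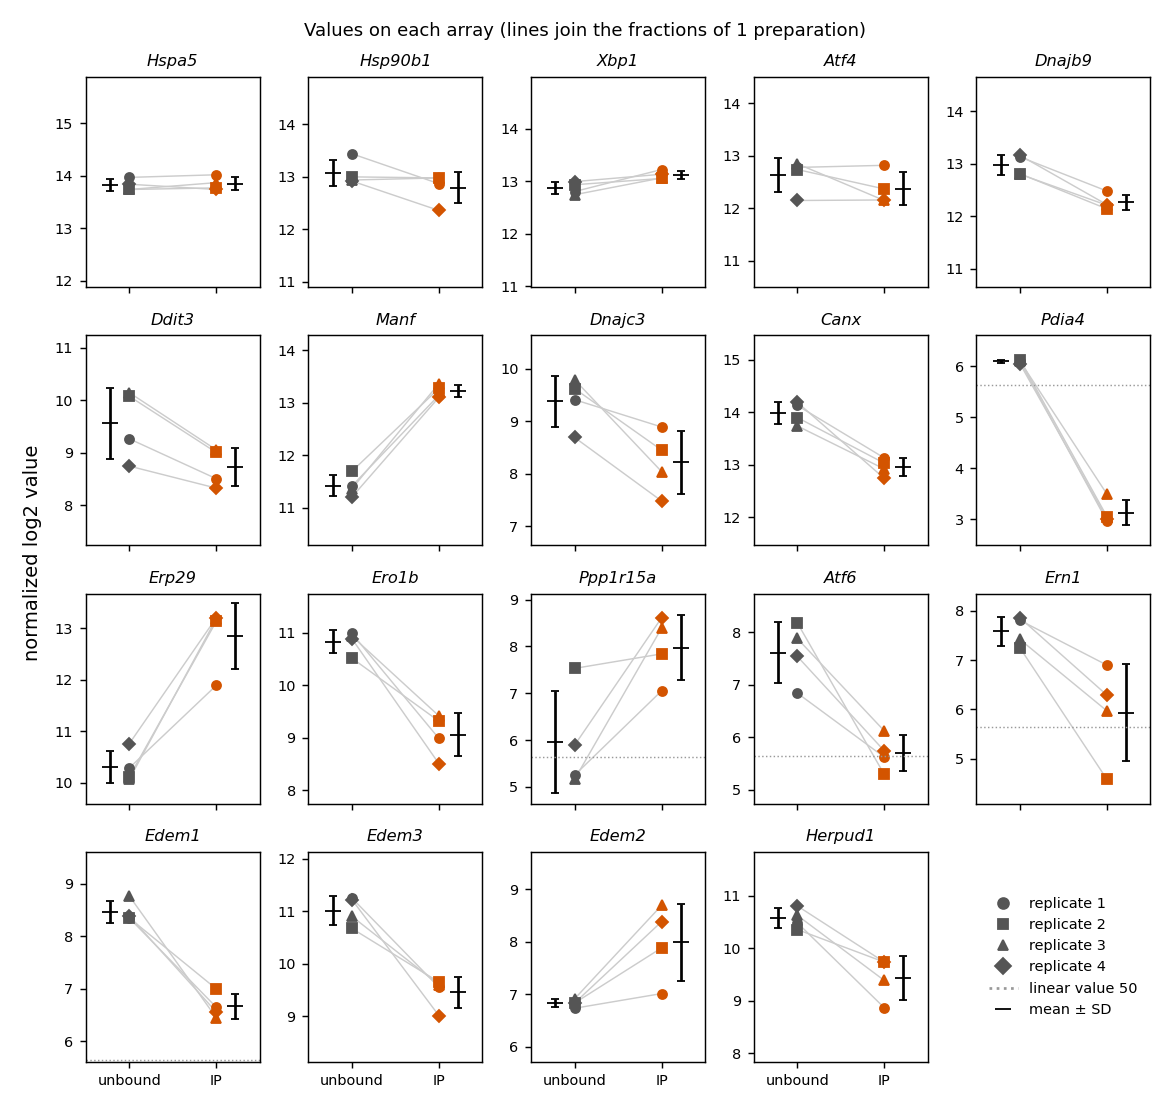
Normalized log2 value (y axis, a separate range in each panel) of 19 genes on the unbound and immunoprecipitate (IP) arrays. Symbols mark the replicate, grey lines join the fractions of 1 preparation, bars show the mean and SD, and the dotted line is the linear value 50. In the Manf panel the groups lie apart, from 13.10 to 13.36 against 11.20 to 11.69, while in the Hspa5 panel they overlap.

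Among the 13 disulfide and prolyl isomerases and their partners 1 rose and 2 fell, all 13 having been tested. That is 7.69% higher and 15.4% lower, beside 4.74% and 44.2% of all tested genes. Erp29, a PDI-fold protein without a redox-active site that helps secretory proteins and connexins mature, rose 5.82-fold, the largest rise among the probe sets that represent the members (log2 fold change 2.54 ± 0.31 SE, adjusted p = 8.3e-05). It stood at 11.89, 13.13, 13.18 and 13.20 in the immunoprecipitates and at 10.29, 10.12, 10.07 and 10.76 in the unbound fractions. The groups were separate, with immunoprecipitate replicate 1 well under the other 3 and still above every unbound fraction. On the poly-A scale Erp29 was at 0.58 and lost its call (adjusted p = 0.094). Erp29 ranked 83 of 10398 genes by fold.

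Most of the disulfide isomerases proper were not called. Txndc5 (ERp46) was at 9.04, 9.28, 9.85 and 10.17 against 8.63, 8.59, 7.03 and 9.93, higher in 4 of 4 preparations with overlapping groups (1.04 ± 0.53 SE, adjusted p = 0.11). With the replicate as a block it was called (adjusted p = 0.046), as it was without unbound replicate 4 (1.5, adjusted p = 0.018). A second Txndc5 probe set was called at least 7.26-fold higher (adjusted p = 0.00057), with 2 of 4 unbound arrays at or above 50. Pdia3 (ERp57), the partner of the lectins, was 0.76 ± 0.27 higher (adjusted p = 0.032) with no overlap of the groups, and a second probe set was at -0.16. Pdia6 (0.71, adjusted p = 0.10) and Pdia5 (0.83, adjusted p = 0.067) were not called, though without immunoprecipitate replicate 1 Pdia5 was (1.11, adjusted p = 0.013). P4hb, the founding member PDI, was at -0.10 (adjusted p = 0.74), Erp44, which retains oxidases in the early secretory pathway, at 0.09, and the transmembrane Txndc11 at -0.39. A second Erp44 probe set was at -0.93 (adjusted p = 0.026), lower in 4 of 4 preparations and short of 2-fold.

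Pdia4 (ERp72) was the exception. It lay at 6.10, 6.13, 6.10 and 6.05 in the unbound fractions, just above the lowest measurable level, and under it on all 4 immunoprecipitate arrays. It was therefore at least 1.38-fold lower, a bound that says nothing of the true size. Pdia4 passed the filter through the unbound arrays alone, which fixed its direction. Its limma adjusted p of 2.7e-06 belongs to the fit on immunoprecipitate values under 50 and not to the bound. Of the oxidases that recharge PDI 1 was called. Ero1b fell 3.43-fold, from 10.99, 10.52, 10.94 and 10.89 in the unbound fractions to 8.99, 9.32, 9.42 and 8.51 in the immunoprecipitates (log2 fold change -1.78 ± 0.24 SE, adjusted p = 0.00017). The groups were separate, and median centring gave -0.97, short of the call. Its paralog Ero1a was at 0.23 ± 0.18 (adjusted p = 0.28), with overlapping groups and the other tested probe sets at 0.23 and -0.19. After median centring Ero1a was called higher (1.04, adjusted p = 0.0011), and quantile normalization put it at 0.88, short of 2-fold. The prolyl isomerases Ppib (0.04) and Fkbp2 (0.06) were not called.

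Of 8 tested stress sensors and factors 1 rose and 2 fell, both falls being sensors. That is 12.5% higher and 25% lower, beside 4.74% and 44.2% of all tested genes, with a median of -0.74 beside -0.85. Atf6, which is cut in the Golgi to free a transcription factor, was at 5.62, 5.29, 6.12 and 5.74 in the immunoprecipitates and at 6.84, 8.18, 7.88 and 7.54 in the unbound fractions. It fell at least 3.55-fold (adjusted p = 0.00060), with 2 of 4 immunoprecipitate arrays at or above 50 and no overlap. Ern1, the kinase and nuclease IRE1, was at 6.90, 4.58, 5.97 and 6.29 against 7.81, 7.25, 7.42 and 7.86. It fell at least 2.61-fold (adjusted p = 0.0085), and 3 immunoprecipitate arrays of 4 reached 50. Median centring ended the call of Ern1 (-0.84, adjusted p = 0.13), and quantile normalization that of Ern1 (-0.46, adjusted p = 0.38) and of Atf6 (-0.71, adjusted p = 0.10). The groups did not overlap, and replicate 2 was the lowest of the immunoprecipitates. Eif2ak3, the kinase PERK, was 0.65 ± 0.24 lower (adjusted p = 0.037), without overlap and short of 2-fold. Median centring put Eif2ak3 at 0.16 and quantile normalization at 0.26.

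Xbp1, whose mRNA is spliced by IRE1 into that of an active factor, was slightly higher in each preparation. It stood at 13.22, 13.05, 13.06 and 13.13 in the immunoprecipitates against 12.80, 12.93, 12.74 and 12.99 in the unbound fractions, a difference of 0.25 ± 0.13 (SE, adjusted p = 0.11). After median centring Xbp1 was called higher (1.06, adjusted p = 0.00016). Quantile normalization put it at 0.54 (adjusted p = 0.0068), short of 2-fold. The arrays do not tell the spliced from the unspliced form here, and its other 3 tested probe sets gave -0.03, 0.13 and 0.51 without a call. Atf4, the factor translated when PERK is active, was at 12.82, 12.37, 12.15 and 12.16 against 12.78, 12.74, 12.85 and 12.15, with overlap (-0.25 ± 0.21 SE, adjusted p = 0.32). Ddit3 (CHOP), a target of ATF4 tied to cell death under lasting stress, was at 8.51, 9.01, 9.06 and 8.33 against 9.27, 10.08, 10.15 and 8.75. It was lower in 4 of 4 preparations with overlapping groups (-0.84 ± 0.35 SE, adjusted p = 0.056), and without unbound replicate 4 it was called (-1.11, adjusted p = 0.013). Median centring put Ddit3 at -0.03 and quantile normalization at 0.0. Trib3, induced by ATF4 and CHOP, lay under 50 on all 8 arrays in both probe sets.

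Ppp1r15a and Ppp1r15b are regulatory subunits that let translation resume by bringing a phosphatase to eIF2. Ppp1r15a (GADD34), the stress-induced subunit, was at 7.05, 7.84, 8.39 and 8.61 in the immunoprecipitates and at 5.25, 7.53, 5.16 and 5.89 in the unbound fractions. It rose at least 3.46-fold (adjusted p = 0.0083), higher in each preparation, with 2 of 4 unbound arrays at or above 50. Unbound replicate 2 stood near the immunoprecipitates, so that the groups overlapped. Ppp1r15b (CReP), the constitutive subunit, was at -0.94 ± 0.25 (SE, adjusted p = 0.0071), without overlap. It missed 2-fold, and passed it without unbound replicate 2 (-1.0), unbound replicate 3 (-1.09) or immunoprecipitate replicate 4 (-1.02). Median centring put Ppp1r15b at -0.13 and quantile normalization at -0.14. On the poly-A scale Ppp1r15a was at 0.05 and not called.

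Genes of endoplasmic reticulum-associated degradation, which sends misfolded proteins back to the cytosol, held 5 falls and 1 rise among 12 tested members. The falls make 41.7%, near the 44.2% of all tested genes, and all 5 lost their call after median centring and after quantile normalization. The mannosidase-like EDEM proteins, which mark misfolded glycoproteins, moved in both directions. Edem1 was at 6.65, 7.0, 6.45 and 6.56 in the immunoprecipitates against 8.35, 8.35, 8.77 and 8.39, a fall of 3.48-fold (log2 fold change -1.80 ± 0.24 SE, adjusted p = 0.00013). A second Edem1 probe set missed the filter and pointed the other way, at 5.82, 6.76, 5.53 and 5.82 against 4.71 on every unbound array. In that probe set 3 of 4 immunoprecipitate arrays and no unbound array reached 50. Edem3 was at 9.55, 9.65, 9.60 and 9.01 against 11.25, 10.67, 10.90 and 11.22, a fall of 2.95-fold (-1.56 ± 0.22 SE, adjusted p = 0.00022). The groups were separate for the tested probe sets of Edem1 and Edem3. After median centring Edem1 was at -0.99 and Edem3 at -0.75, and after quantile normalization at -0.74 and -0.86. Edem2, in contrast, was at 7.01, 7.88, 8.69 and 8.38 against 6.73, 6.83, 6.91 and 6.83, a rise of 2.24-fold (1.17 ± 0.35 SE, adjusted p = 0.014) with no overlap. Without immunoprecipitate replicate 3 Edem2 was at 0.93, and on the poly-A scale at -0.80.

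Other members act in or around HRD1, a ubiquitin ligase of the membrane. Herpud1, an early target of the stress response that organises the HRD1 complex, was at 8.87, 9.74, 9.39 and 9.74 in the immunoprecipitates and at 10.49, 10.36, 10.63 and 10.81 in the unbound fractions. The groups were separate, with a fall of 2.20-fold (-1.14 ± 0.24 SE, adjusted p = 0.0021), which was -0.95 without immunoprecipitate replicate 1, -0.33 after median centring and -0.41 after quantile normalization. Sel1l, the adaptor of HRD1, fell 2.18-fold (adjusted p = 0.0033; -0.31 and -0.42 on those scales), with -0.91 without unbound replicate 4 and 0.13 in a second probe set. The selenoprotein Selenos (VIMP), which recruits the ATPase p97, fell 2.20-fold (adjusted p = 0.00091; -0.33 and -0.67). Syvn1, HRD1 itself, was at -0.47 (adjusted p = 0.060), while its second probe set was called at -1.26 (adjusted p = 0.0013). The lectin Os9 (-0.27), the channel-like Derl1 (-0.09) and Derl2 (0.45, adjusted p = 0.060), and the extraction enzyme Vcp (0.07) with its cofactor Ufd1 (-0.15) were not called. Derl3 lay under 50 on every array.

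20 members had several tested probe sets. For 13 of them all probe sets had the same call, and for 0 were there calls in both directions. When a gene was instead taken as the mean of its tested probe sets, 5 members were higher and 6 lower: Txndc5 was gained at 2.30, and Canx (-0.81), Dnajc3 (-0.62), Herpud1 (-0.90), Sel1l (-0.50) and Selenos (-0.81) were lost.

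Members with the same element differed in their values. Of the 9 tested members with ERSE 3 fell (Canx, Dnajc3 and Ero1b) and 6 were not called, with log2 fold changes from -1.78 in Ero1b to 0.71 in Pdia6 and a median of -0.47. Of the 31 tested members with a window but no ERSE 2 rose and 7 fell, with a median of -0.10. Of all tested genes with a window 4.66% rose and 43.4% fell, with a median of -0.82. For the risers Manf and Erp29 no window was used here.

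The rest of the pathway was read from a list of 89 further endoplasmic reticulum genes, of which 71 were tested. 7 rose and 12 fell (9.86% and 16.9%, beside 4.74% and 44.2% of all tested genes), with a median of -0.08. Median centring made these counts 21 and 5, quantile normalization 20 and 5, and poly-A alignment 1 and 64. On those scales 17.5%, 16.4% and 0.673% of all tested genes were higher, and 22.2%, 20.6% and 94.5% lower. Creb3l1 (OASIS), a membrane-bound transcription factor of the ATF6 kind, was at 6.98, 8.06, 7.95 and 8.80 in the immunoprecipitates and under 50 on all 4 unbound arrays, at least 4.89-fold higher (adjusted p = 5.9e-06). Its close relative Creb3l2 did the reverse. It was at 6.43, 6.63, 7.05 and 6.87 in the unbound fractions and under 50 in all immunoprecipitates, at least 2.16-fold lower (adjusted p = 3.5e-06). Sil1, the nucleotide exchange factor of BiP, rose 3.02-fold (adjusted p = 0.0017), the calcium-binding Rcn1 2.61-fold (adjusted p = 0.0042) and the lectin Erlec1, a partner of HRD1, 2.33-fold (adjusted p = 0.00029). On the poly-A scale these 3 were at -0.37, -0.58 and -0.75, and as the mean of its probe sets Erlec1 was at -0.24. Nupr1, a stress-induced nuclear protein, was at least 5.31-fold lower and under 50 in all immunoprecipitates. Creb3l1 passed the filter through the immunoprecipitates alone, and Creb3l2 and Nupr1 through the unbound arrays alone, which fixed their direction. Clgn, a relative of calnexin, was at least 5.82-fold lower (1 immunoprecipitate array of 4 reached 50), and the J-protein Dnajb14 fell 4.76-fold. Without immunoprecipitate replicate 3 the list had 4 higher genes and 13 lower.

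Other machinery of protein handling is given by its counts, beside the members' 4 higher and 11 lower of 46. Of all tested genes 4.74% were higher and 44.2% lower. Of 48 tested translocon, signal recognition and coat genes 3 rose and 9 fell, with a median of -0.19. Ssr4, a subunit of the translocon-associated complex, rose 3.10-fold (0.27 and not called as the mean of its probe sets, -0.33 on the poly-A scale), and Sec24a, a cargo adaptor of COPII coats, was at least 8.41-fold lower (1 immunoprecipitate array of 4 reached 50). Of 28 tested cytosolic chaperones 0 rose and 4 fell by limma (1 higher and 14 lower at an unadjusted p below 0.05), with a median of -0.45. Bag3, a partner of Hsp70, was at least 2.86-fold lower. It passed the filter through the unbound arrays alone, which fixed its direction. Hspa1b, an inducible Hsp70 that is nearly identical to Hspa1a so that their signals may be shared, fell 3.31-fold. Of 31 tested proteasome subunits 0 were called by limma (at an unadjusted p below 0.05 3 were higher and 7 lower), with values from -0.94 to 0.75 and a median of -0.02, whereas 11 were higher after median centring, 3 after quantile normalization and all 31 lower on the poly-A scale. After median centring, quantile normalization and poly-A alignment the translocon and coat list gave 17, 10 and 0 higher and 1, 1 and 45 lower, and the cytosolic chaperones 3, 0 and 0 higher and 1, 1 and 28 lower. The shares of all tested genes on those scales were 17.5%, 16.4% and 0.673% higher and 22.2%, 20.6% and 94.5% lower. The differences between these lists were not tested.

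**Figure D3:**
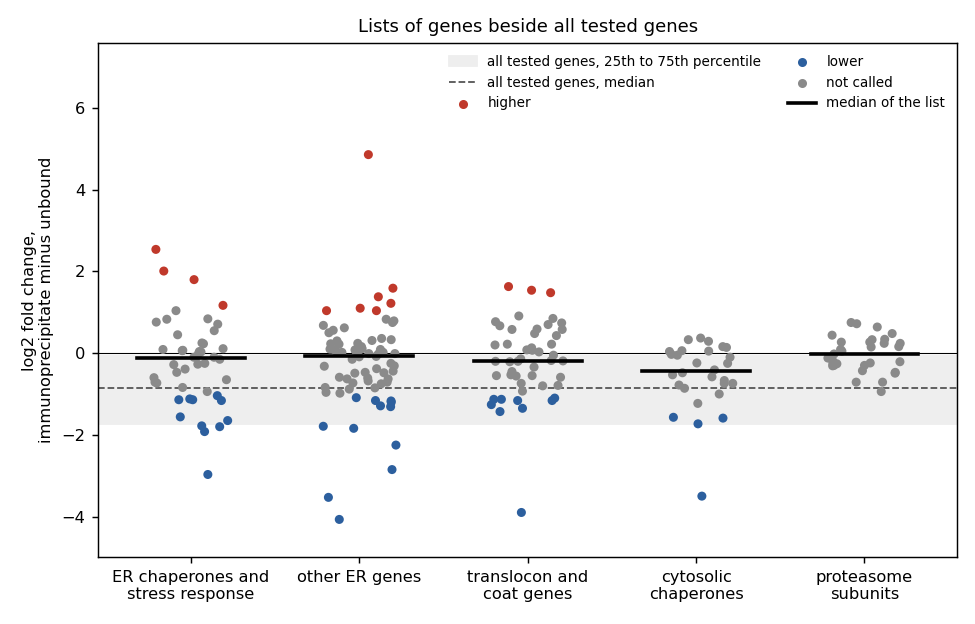
Log2 fold change (immunoprecipitate minus unbound, y axis) of each tested gene in 5 lists. Points are genes, coloured by call, black bars are list medians, the grey band is the 25th to 75th percentile of all tested genes (-1.73 to -0.08) and the dashed line their median (-0.85). The medians of the 5 lists lie between -0.45 and -0.02, above the dashed line.

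Genomic length moved with these values. Over all genes with a known length, the median log2 fold change was -0.13 in the shortest of 5 equal length classes and -1.54 in the longest. The tested members had a median span of 17784 bp, against 25687 bp for all genes. In the shortest class 13 members had a median of 0.04, with 3 higher (Erp29, Manf and Ppp1r15a) and 0 lower. Over all tested genes 4.74% were higher and 44.2% lower, and these shares were not counted by class. The next classes held 11, 11, 7 and 4 members with medians of -0.28, -0.09, -1.12 and -0.78, beside -0.52, -0.81, -1.15 and -1.54 for all genes. Of the 11 members that fell 6 were in the 2 longest classes, among them Atf6, Ern1, Ero1b and Edem3. Across the 46 members Spearman's rho between length and fold was -0.30, and across all genes -0.36. Genes are not independent replicates, and the part of length in the result was not tested. The 3' minus 5' signal of the control probe sets, a sign of RNA integrity, overlapped between the fractions. For Actb it was 3.14 to 4.11 in the immunoprecipitates and 3.01 to 3.8 in the unbound fractions (exact permutation p = 0.31, two-sided, n = 4 each), and for Gapdh 2.12 to 4.50 and 1.94 to 3.36 (exact permutation p = 0.46, two-sided, n = 4 each). The smallest p this design allows is 0.029.

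**Figure D4:**
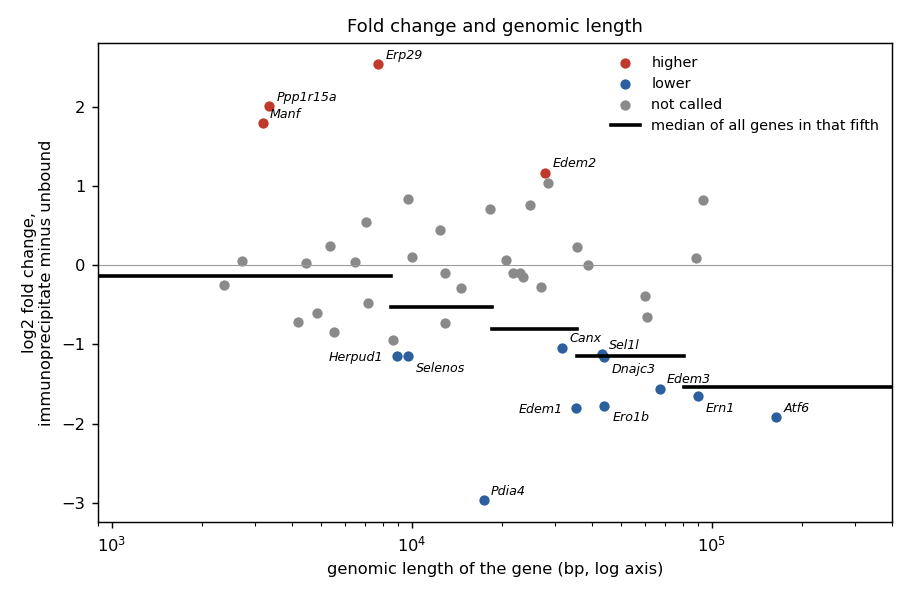
Log2 fold change (y axis) against the genomic length of the gene in bp (x axis, log scale) for the 46 tested members, coloured by call. Black bars are the medians of all tested genes in 5 length classes, from -0.13 in the shortest to -1.54 in the longest. The 3 highest members lie in the shortest class.

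How the fractions are set on 1 scale decides the signs. The groups had been normalized apart, and the values above were aligned on 18 biotinylated hybridisation controls. On that scale the median tested probe set lay at -0.87. Median centring raises it by 0.81, quantile normalization by 0.83, and alignment on 24 poly-A controls moves it by -1.97. Over all genes median centring gave 17.5% called higher and 22.2% lower. Quantile normalization gave 16.4% and 20.6%, and poly-A alignment 0.673% and 94.5%. The members' median was 0.68, 0.37 and -2.09 on these scales. Relative to the median of all genes it was 0.72 higher on the main, median-centred and poly-A scales. Those scales differ by a constant for every gene, so this value could not differ between them. After quantile normalization, where it could, it was 0.42 higher. Manf, Erp29, Ppp1r15a and Edem2 were called higher on every scale but the poly-A one. Of the 10 falls other than Pdia4, Atf6 alone kept its call after median centring (-1.11) and Ero1b alone after quantile normalization (-1.03). Pdia3, Pdia5, Pdia6, Txndc5, Sdf2, Creld2 and Derl2 were called higher after both median centring and quantile normalization. Xbp1 (1.06) and Ero1a (1.04) were called higher after median centring alone.

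**Figure D5:**
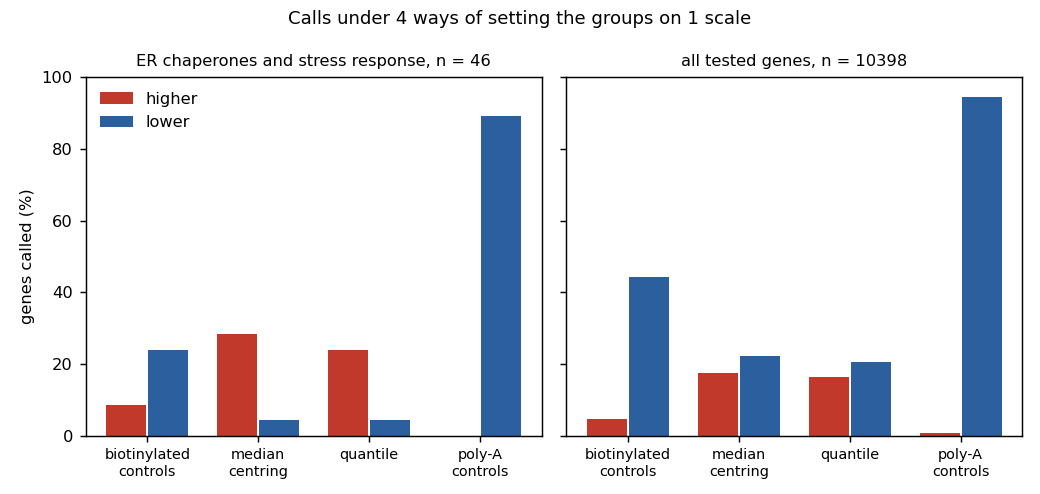
Share of genes called higher (red) and lower (blue), in percent, under 4 ways of aligning the fractions, for the 46 tested members (left) and all 10398 tested genes (right). Members called lower range from 2 of 46 after median centring to 41 of 46 on the poly-A scale, beside 22.2% and 94.5% of all tested genes.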

How the data were processed

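The authors deposited GCRMA-normalized log2 values for each of 8 arrays. The submitters' processing notes name GCRMA without a version. Per the design text the immunoprecipitate and unbound arrays were normalized separately, so 1 constant per group was subtracted to equalise 18 biotinylated hybridisation controls, which differed by 0.02 as deposited. Separate normalization cannot be undone by a constant.

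Of the probe sets, 34945 had 1 gene symbol in the platform annotation, 932 several and 9160 were not listed. Controls (64) were left out, and 17865 probe sets with a linear value of at least 50 on at least 4 arrays were compared by limma (version 3.58.1, R 4.3.3, with lmFit and trended eBayes) and Benjamini-Hochberg adjustment over all of them. A gene was represented by its tested probe set of highest mean over the 8 arrays. Fold bounds, written "at least", raise values under 50 to 50. The test was checked on simulated data.

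Per the labels each unbound fraction came from the same preparation as its immunoprecipitate, and deviations of same-numbered arrays correlated at 0.44, 0.334, 0.255 and 0.587. The highest correlation with another number was -0.056, 0.257, 0.257 and -0.101, so replicate 3 was no closer to its own number. The pairing was taken from the labels, each correlation with the own number being above 0.1. The main fit left this pairing out, and it entered only in the alternative with the replicate as a block. The main p-values thus measure the spread among the 4 arrays of each fraction, each from another pool. Alternatives were other alignments, filters, no trend, no fold threshold, probe set means, the replicate block and leaving out each array. The members and lists were chosen with earlier results of these data known. Values on every array are given for Hspa5, Hsp90b1, Xbp1, Atf4, Dnajb9 and Ddit3 and, per role, for up to 4 called members with the largest change, and values for Txndc5 in addition, chosen after its values were seen. Of other endoplasmic reticulum genes, up to 4 of the largest called rises and falls are named, and up to 2 called genes of each other list. Promoter windows and gene lengths are from RefSeq tables of GRCm38.p6.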

Additional observations from a re-analysis of the deposited data

Results flagged for a closer look

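In 6 of 59 groups of 4 arrays examined, over 32 genes, 1 array stood apart by Dixon's ratio of its gap to the whole range, past its critical value. Chance alone sets about 1 in 20 groups apart. For Erp29 immunoprecipitate replicate 1 was at 11.89 and the others at 13.13 to 13.20 (ratio 0.943). For Hspa1b the same array was at 10.03 and the others at 8.41 to 8.55 (ratio 0.916). That array also had the highest summed astrocyte markers, 8182, and the part of this in the values was not tested. For Edem3 immunoprecipitate replicate 4 was at 9.01 and the others at 9.55 to 9.65 (ratio 0.847). In the unbound fractions, Hsp90b1 was at 13.44 in replicate 1 against 12.92 to 13.00 (ratio 0.848), Edem1 at 8.77 in replicate 3 against 8.35 to 8.39 (ratio 0.893) and Atf4 at 12.15 in replicate 4 against 12.74 to 12.85 (ratio 0.846).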

How the results depend on the processing

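Alignment of the fractions moved the counts most. Median centring, quantile normalization and poly-A alignment put 17.5%, 16.4% and 0.673% of all tested genes higher, and 22.2%, 20.6% and 94.5% lower. Under median centring, quantile normalization and poly-A alignment 3150, 3081 and 125 probe sets were higher (872 as reported) and 4228, 3726 and 16823 lower (8059), 13, 11 and 0 members were higher (4) and 2, 2 and 41 lower (11), 21, 20 and 1 other endoplasmic reticulum genes were higher (7) and 5, 5 and 64 lower (12), and the members' median was 0.68, 0.37 and -2.09 (-0.13). Without the filter 1402 probe sets were higher. Without the fold threshold 1489 probe sets and 7 members were higher, and 23 other endoplasmic reticulum genes were lower. With probe set means 6 members were lower. With the replicate block, 5 members were higher and 11 lower, Txndc5 being the only member whose call changed. Leaving out 1 array gave 775 to 1064 probe sets higher and 7840 to 8163 lower, 3 to 5 members higher and 10 to 12 lower, 4 to 8 other endoplasmic reticulum genes higher and 11 to 13 lower, and a member median of -0.21 to -0.09. The poly-A alignment turned the sign of Hspa5 (-1.94), Dnajc10 (-1.96), Sdf2 (-1.13), Manf (-0.16), Creld1 (-1.86), Creld2 (-1.42), Pdia3 (-1.21), Pdia5 (-1.13), Pdia6 (-1.26), Erp44 (-1.87), Ero1a (-1.74), Ppib (-1.93), Fkbp2 (-1.91), Xbp1 (-1.71), Edem2 (-0.80), Derl2 (-1.52), Vcp (-1.90), Sil1 (-0.37), Rcn1 (-0.58), Erlec1 (-0.75) and Ssr4 (-0.33), by a constant for every gene. Probe set means turned Erlec1 (-0.24), and the cause was not tested. Values near the lowest measurable level, as for Pdia4, Ern1, Atf6 and Ppp1r15a, give bounds only.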
